A study of Mus musculus with 4 samples.

Results

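The 10 genes followed here mark the projection neurons of cortical layer 5 and were measured in polysomal and total RNA of mouse cortex: Fezf2, Bcl11b, Etv1, Pou3f1, Ldb2, Il1rapl2, Npr3, Sulf2, Parm1 and Deptor. They were chosen by symbol as markers of intratelencephalic and extratelencephalic neurons of that layer, with earlier results of these data known. All 10 of them were found among the 32531 gene names of each library. All 10 also passed the filter on low counts, as 10 of the 16600 genes tested. The mice were adults of line NIDA030, in which Cbln1 regulatory sequence drives the ribosomal protein Rpl10a fused to EGFP, and both groups came from cerebral cortex of these mice. In the IP group (2 libraries, replicates 2 and 4), RNA was recovered from ribosomes captured with anti-EGFP antibody, and in the input group (2 libraries, replicates 2 and 4) it was the total RNA of the sample. The labels do not say whether replicates came from separate animals or how many animals were pooled, and a p-value here reflects the spread between these 4 libraries alone, part of which may be technical.

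Layer 5 holds the main output neurons of the cortex. Its intratelencephalic neurons send axons to other cortical areas and to the striatum, whereas its extratelencephalic neurons, also called pyramidal tract neurons, project to thalamus, midbrain, pons and spinal cord. The transcription factor Fezf2 directs neurons toward the subcerebral fate, and Bcl11b, also known as Ctip2, acts downstream of it in the growth of corticospinal axons. In affinity purification of tagged ribosomes, a transcript is higher in IP than in input where it is more abundant on the ribosomes of the tagged cells than in the RNA of the whole tissue. In such bulk RNA, fewer cells of a type and less RNA per cell cannot be told apart.

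In IP, 6 of the 10 genes rose and 1 fell, and the remaining 3 missed the threshold, a Benjamini-Hochberg adjusted p of 0.05 over all genes in the quasi-likelihood test of edgeR. Il1rapl2 rose most, 3.03-fold, followed by Sulf2 at 1.91-fold, and Bcl11b was the one that fell, at 1.92-fold lower in IP. Across all genes tested, 23.4% were called higher and 22.4% lower. Among the 6397 genes whose mean abundance lay within the range of the 10 markers, 37.3% were called higher and 20.7% lower. Because the markers were chosen with earlier results known, these shares are given for scale and not as a test of the set. The median log2 fold change was 0.39 over the 10 markers and -0.04 over all genes tested. Scaled by library sizes alone, which moved the median of all genes by -0.26, 13.0% of genes were called higher and 35.6% lower, and 4 of the markers rose and 2 fell. With offsets for GC content and transcript length the shares were 28.8% and 17.0%, with 5 markers higher and 1 lower.

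The IP libraries held 41334423 and 47567384 counts on genes and the input libraries 41385301 and 39750468. A count of 3, taken as the floor, corresponded to 0.0660 to 0.0790 CPM (counts per 1e6 of TMM-scaled library size, with TMM, the trimmed mean of M-values, correcting for composition), and every marker lay far above it, at a mean of 15.1 to 145 CPM over both groups. Cbln1 itself, the source of the regulatory sequence in the transgene, was at 99.3 and 68.7 CPM in IP and 11.9 and 8.55 CPM in input (log2 fold change 3.03, SE 0.17, edgeR adjusted p = 1.39e-10). Markers of cortical glutamatergic neurons were present throughout: 6 of the 8 on the list rose and 1 fell (median 0.37), and their summed level was 6797 and 7080 CPM in IP against 4978 and 5268 CPM in input. They moved the same way as most of the 10 markers, and their part in those rises was not tested. Oligodendrocyte markers (2 higher and 5 lower of 8), astrocyte markers (3 and 3 of 8), oligodendrocyte precursor markers (1 and 1 of 6) and microglial markers (1 and 2 of 8) had medians of -0.44, -0.02, -0.05 and -0.06. Of 8 endothelial markers, at means of only 0.63 to 2.65 CPM, none passed the edgeR threshold (median -0.54). For 5 of them both IP libraries lay below both input libraries, and for 1 above. The same held for 37.8% and 35.3% of all genes tested. Of 10 mural and fibroblast markers 2 rose and 3 fell (median 0.07). The sample descriptions place both IP libraries on 1 sequencing lane and both input libraries on another, and the effects of lane and group cannot be told apart.

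**Figure D1:**
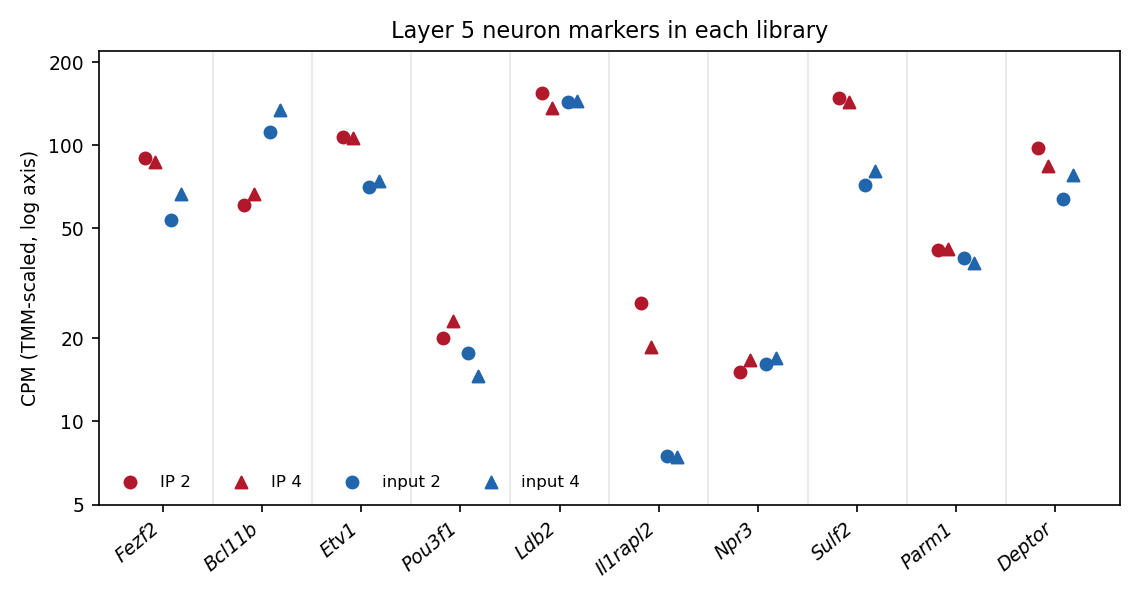
Abundance of the 10 markers in each library, in TMM-scaled CPM on a log axis. Red symbols are the 2 IP libraries and blue symbols the 2 input libraries, circles for replicate 2 and triangles for replicate 4. Il1rapl2 stands at 18.6 and 26.8 CPM in IP against 7.46 and 7.50 CPM in input, and Bcl11b is the one gene with both IP libraries below both input libraries.

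Several of the markers have close relatives whose transcripts moved differently, so it matters whether reads of one can be told from reads of another. The coding sequences of Bcl11b and Bcl11a, Il1rapl2 and Il1rapl1, and Pou3f1 and Pou3f2, pairs that differed in direction, were therefore compared, and the longest stretch of identical bases in each pair is printed here in capitals, with up to 10 bases of flanking coding sequence in lower case (GENCODE vM21 transcripts, GRCm38).
Bcl11b: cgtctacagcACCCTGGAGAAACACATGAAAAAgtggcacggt
Bcl11a: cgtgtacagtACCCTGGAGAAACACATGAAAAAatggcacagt
Il1rapl2: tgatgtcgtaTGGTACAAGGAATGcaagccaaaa
Il1rapl1: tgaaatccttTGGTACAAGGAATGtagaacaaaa
Pou3f1: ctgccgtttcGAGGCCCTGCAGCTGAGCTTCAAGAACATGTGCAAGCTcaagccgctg
Pou3f2: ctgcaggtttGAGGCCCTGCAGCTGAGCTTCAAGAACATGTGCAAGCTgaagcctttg
The identical runs were 23 bases for Bcl11b and Bcl11a, 14 for Il1rapl2 and Il1rapl1, and 38 for Pou3f1 and Pou3f2. In the longest annotated transcript of Fezf2, Ldb2, Il1rapl2, Npr3 and Parm1, no 50-base window recurred in an annotated transcript of another gene. Of the same windows, searched on both strands, 0.273% were shared with transcripts of other genes for Bcl11b, 2.32% for Sulf2, 3.94% for Deptor and 7.42% for Pou3f1. The only gene sharing them was Ncoa3 for Sulf2 and Gm2164 for Pou3f1, and Gm9920 was among those for Deptor. Exons of these genes overlap the marker on the opposite strand, so such windows need not mark a second place in the genome. Etv1 shared 19.0%, with the processed pseudogene Gm5454 among the genes that hold them, and its relative Etv5 shared 26.8% with the processed pseudogene Gm4798. Reads that aligned to several places were left out of the counts, so Etv1 and Etv5 may be undercounted. Exons of Sulf2, Pou3f1, Deptor and Npr3 overlap genes on the opposite strand (Ncoa3, Gm2164, Gm9920 and Gm5144), and because no source used here gives the strand setting of the counting, their counts are uncertain to that extent.

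Of the 5 markers that act in transcription, Fezf2, Etv1 and Pou3f1 rose, Bcl11b fell and Ldb2 did not pass the threshold. Fezf2, a zinc finger factor that specifies subcerebral projection neurons, lies on chromosome 14 between 12342094 and 12348189, minus strand (ENSMUSG00000021743.6; coordinates here and below are of GRCm38). It stood at 90.1 and 87.1 CPM in IP 2 and IP 4 and at 53.6 and 66.5 CPM in input 2 and input 4. The groups were separate, with IP above input, and the log2 fold change was 0.56 (SE 0.11, edgeR adjusted p = 0.000449).

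Bcl11b went the other way. This zinc finger repressor is on chromosome 12 between 107910403 and 108003602, minus strand (ENSMUSG00000048251.15), and was counted at 61.0 and 66.7 CPM in IP 2 and IP 4 against 111.9 and 133.9 CPM in input 2 and input 4. The groups did not overlap, and it fell by 0.94 on the log2 scale (SE 0.11, edgeR adjusted p = 1.11e-06). The call was kept under each of the 12 alternatives that give a fold change, with log2 values from -1.20 to -0.80. Within a library, where scaling plays no part, there were 0.677 and 0.766 Bcl11b counts per Fezf2 count in IP 2 and IP 4 and 2.09 and 2.01 in input 2 and input 4, so that the ratio was 2.85-fold lower in IP. Between 2 libraries and 2, an exact two-sided permutation test cannot go below p = 0.333, which holds for each of the 10 ratios compared in this way.

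Bcl11b is also made by projection neurons of the striatum and by many GABAergic interneurons. Of 11 striatal markers 10 fell and 0 rose in IP (median -0.64), none was at 0 in any library, and their summed level was 636 and 707 CPM in IP against 979 and 1080 CPM in input. A large part of that sum came from the most abundant of them, at a mean of 243 CPM in IP and 296 CPM in input. That gene is also on the list of regulators of cortical projection neuron identity below. Of 9 GABAergic markers 4 fell and 1 rose (median -0.24), also with none at 0, and their summed level was 866 and 1043 CPM in IP against 965 and 1025 CPM in input. The part of these cells in the lower Bcl11b was not tested.

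Etv1, an ETS family factor that marks layer 5 and is also known as Er81, lies on chromosome 12 between 38779380 and 38870484, plus strand (ENSMUSG00000004151.17). It was measured at 107.2 and 106.4 CPM in IP and 70.8 and 74.5 CPM in input, without overlap. The 1.47-fold rise (log2 0.56, SE 0.10, edgeR adjusted p = 0.000136) passed under each of the 12 alternatives. Its relative Etv5 rose by a like amount, 0.61 (SE 0.11), and there were 0.813 and 0.654 Etv1 counts per Etv5 count in IP 2 and IP 4 against 0.744 and 0.759 in input, ranges that overlapped. Etv4, the remaining member of that subfamily, was at a mean of 1.20 CPM and did not pass.

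Pou3f1, a POU domain factor also known as Oct6, is a gene of 1 exon on chromosome 4 between 124656807 and 124660655, plus strand (ENSMUSG00000090125.3). It stood at 20.1 and 23.0 CPM in IP and at 17.7 and 14.6 CPM in input. The groups did not overlap and the log2 fold change was 0.42 (SE 0.15, edgeR adjusted p = 0.0292), but the rise did not pass without IP 4 (adjusted p = 0.149), without input 4 (0.235), with library sizes alone (0.409) and with offsets for GC content and transcript length (0.262). Both relatives fell: Pou3f2 by 0.82 (SE 0.15) and Pou3f3 by 0.72 (SE 0.13). Pou3f1 counts per Pou3f2 count were 1.53 and 1.42 in IP and 0.704 and 0.544 in input, a ratio 2.38-fold higher in IP. Their longest transcripts differ in GC content, at 63.9% for Pou3f1 and 44.4% for Pou3f2, and the ratio was not adjusted for it.

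Ldb2, an adaptor that binds LIM domain proteins and holds their transcription complexes together, was the most abundant of the 10 per unit of length. It is on chromosome 5 between 44472132 and 44799680, minus strand (ENSMUSG00000039706.11). Its values were 155 and 136 CPM in IP and 144 and 145 CPM in input, which overlapped. The log2 fold change was 0.01, with a 95% interval from -0.19 to 0.22 (edgeR adjusted p = 0.927), and with library sizes alone it was called lower at -0.25 (adjusted p = 0.0418). Its relative Ldb1 had a log2 fold change of 0.35 (SE 0.11) and passed, but not without IP 4, without input 2, with library sizes alone or with GC and length offsets. There were 2.78 and 2.12 Ldb2 counts per Ldb1 count in IP against 3.16 and 2.97 in input.

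**Figure D2:**
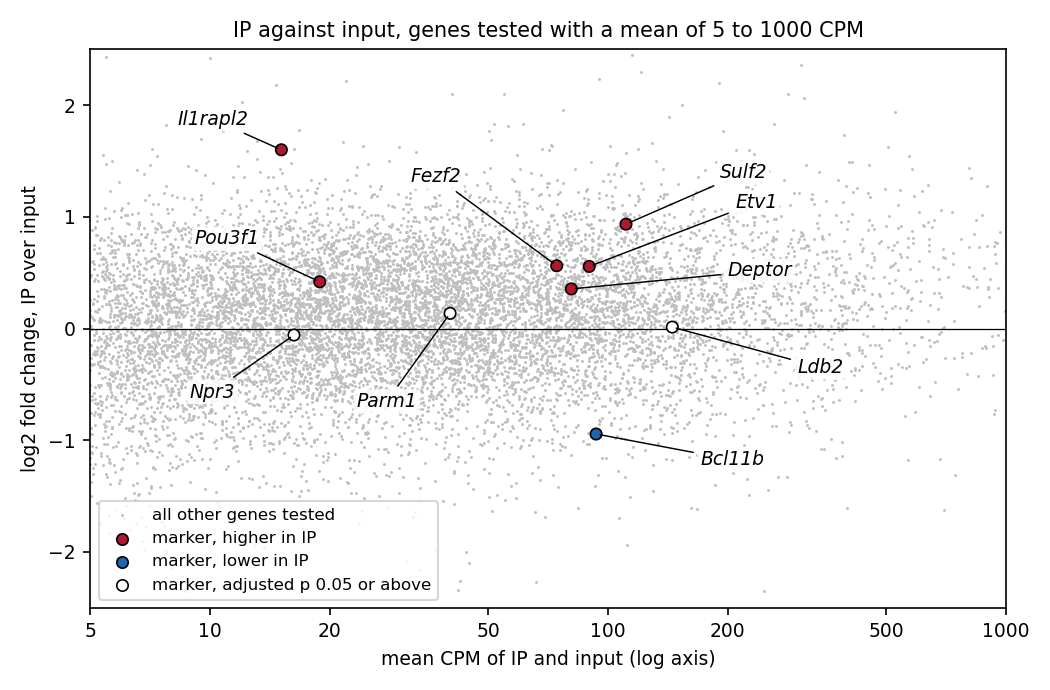
Log2 fold change of IP over input against mean CPM on a log axis for the 10551 genes tested that lie within the axes. Grey points are single genes, and the 10 markers are labelled, in red where higher in IP, in blue where lower and in white where the adjusted p was 0.05 or above. Il1rapl2 lies at 1.60 and Bcl11b at -0.94, with the other markers between -0.06 and 0.93.

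The other 5 markers encode membrane, extracellular and signalling proteins, of which Il1rapl2, Sulf2 and Deptor rose and Npr3 and Parm1 did not pass. Il1rapl2, a synaptic membrane protein of the interleukin 1 receptor family, is on chromosome X between 137570608 and 138846946, plus strand (ENSMUSG00000059203.10). It was counted 1017 and 806 times in IP 2 and IP 4 and 341 and 323 times in input 2 and input 4, which gave 26.8 and 18.6 CPM against 7.50 and 7.46 CPM. IP 2 was the highest library, the input libraries lay close together, and the groups did not overlap. A log2 fold change of 1.60 (edgeR SE 0.18, adjusted p = 8.07e-07) lay above 99.1% of the genes tested. Il1rapl2 was also the one marker that passed when the test was made against a log2 fold change of 1, a test that called 1.04% of all genes higher and 4.07% lower.

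Its closest relative, Il1rapl1, the product of a gene linked to intellectual disability, went down. Il1rapl1 stood at 8.55 and 9.37 CPM in IP and 13.6 and 12.3 CPM in input, and fell by 0.53 (SE 0.17, edgeR adjusted p = 0.017), a call lost without IP 2, without input 2 and with GC and length offsets, where the value was -0.16. There were 3.13 and 1.99 Il1rapl2 counts for each Il1rapl1 count in IP 2 and IP 4, against 0.551 and 0.609 in input 2 and input 4. Il1rapl1 was thus counted more often than Il1rapl2 in both input libraries and less often in both IP libraries, a shift of 4.31-fold. These counts were not divided by gene length. Per kilobase of exonic sequence, Il1rapl2 was above Il1rapl1 in both groups, at 1.60 against 1.38 CPM in input and 4.84 against 0.96 CPM in IP. Of the other proteins of this family, the co-receptor gene Il1rap had a log2 fold change of 0.41 (SE 0.15) and the interleukin 1 receptor gene Il1r1 one of -0.88 (SE 0.35). Both passed, but Il1rap did not pass in 6 and Il1r1 in 5 of the 12 alternatives. Ptprd, a presynaptic phosphatase that binds Il1rapl1, was abundant at 319 CPM and did not pass, with a 95% interval of -0.22 to 0.16. It was called lower with library sizes alone (-0.29) and higher with GC and length offsets (0.27).

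Sulf2, a secreted enzyme that removes sulfate groups from heparan sulfate, lies on chromosome 2 between 166073089 and 166155663, minus strand (ENSMUSG00000006800.14). It was measured at 147.8 and 143.6 CPM in IP and 71.9 and 80.6 CPM in input, so the IP libraries lay far above the input libraries. The log2 fold change was 0.93 (SE 0.10, edgeR adjusted p = 4.31e-07) and it passed under each of the 12 alternatives, with values from 0.68 to 1.03. Sulf1, the other enzyme of this kind, rose by 0.76 (SE 0.18), from 9.99 and 13.98 CPM in input to 17.2 and 23.5 CPM in IP. There were 8.59 and 6.12 Sulf2 counts per Sulf1 count in IP and 7.20 and 5.76 in input, ranges that overlapped. Gpc1, a proteoglycan that carries heparan sulfate, stood at 44.5 and 42.7 CPM in IP and 22.6 and 21.0 CPM in input and rose by 1.0 (SE 0.12) on the log2 scale, whereas Ndst1, which adds sulfate groups to the chains, fell by 0.36 (SE 0.10) and did not pass without IP 4 or without input 4.

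Deptor, an inhibitor of the mTOR kinase that binds both of its complexes, is on chromosome 15 between 55112317 and 55259271, plus strand (ENSMUSG00000022419.16). Its values were 97.7 and 83.9 CPM in IP and 64.0 and 78.0 CPM in input. The groups did not overlap and the log2 fold change was 0.35 (SE 0.11, edgeR adjusted p = 0.0163). That call was lost without IP 2 (0.26, adjusted p = 0.102), without input 2 (0.22, adjusted p = 0.202) and with library sizes alone (0.10, adjusted p = 0.501). Rptor, the scaffold of mTOR complex 1, rose by 0.59 (SE 0.11) and passed under each alternative, while Mtor itself and Rictor, the scaffold of complex 2, had log2 fold changes of 0.24 and 0.22 that did not pass (edgeR adjusted p = 0.0953 and 0.0906). Mtor passed in 5 of the 12 alternatives, with values from -0.02 to 0.44 over all of them, and Rictor in 3, with values from -0.04 to 0.52.

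Npr3, the clearance receptor for natriuretic peptides, is on chromosome 15 between 11839896 and 11907287, minus strand (ENSMUSG00000022206.7). It was at 15.1 and 16.7 CPM in IP and 16.2 and 16.9 CPM in input, and the groups overlapped. Its log2 fold change of -0.06 had a 95% interval from -0.37 to 0.25 (edgeR adjusted p = 0.775). Of the ligands and receptors of this system, Nppc, the C-type natriuretic peptide gene, was 1.68-fold higher in IP at a mean of 7.80 against 4.63 CPM (adjusted p = 0.00872), a call lost without input 2 and with library sizes alone. Npr2, the receptor for that peptide, did not pass at -0.17 and was called lower with library sizes alone (-0.42), Npr1 did not pass at a mean of 0.423 CPM, and Nppb had 0 counts in each library.

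Parm1, a mucin-like membrane protein, lies on chromosome 5 between 91517615 and 91626894, plus strand (ENSMUSG00000034981.9). It was counted at 41.7 and 42.3 CPM in IP and at 39.0 and 37.4 CPM in input. Both IP libraries were above both input libraries, but the difference was small, 0.14 on the log2 scale with a 95% interval from -0.10 to 0.37, and did not pass (edgeR adjusted p = 0.351). Counted by libraries alone, 7 of the 10 markers had both IP values above both input values, 1 had both below and 2 overlapped. Over all genes tested, 35.3% lay above and 37.8% below in this way.

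**Figure D3:**
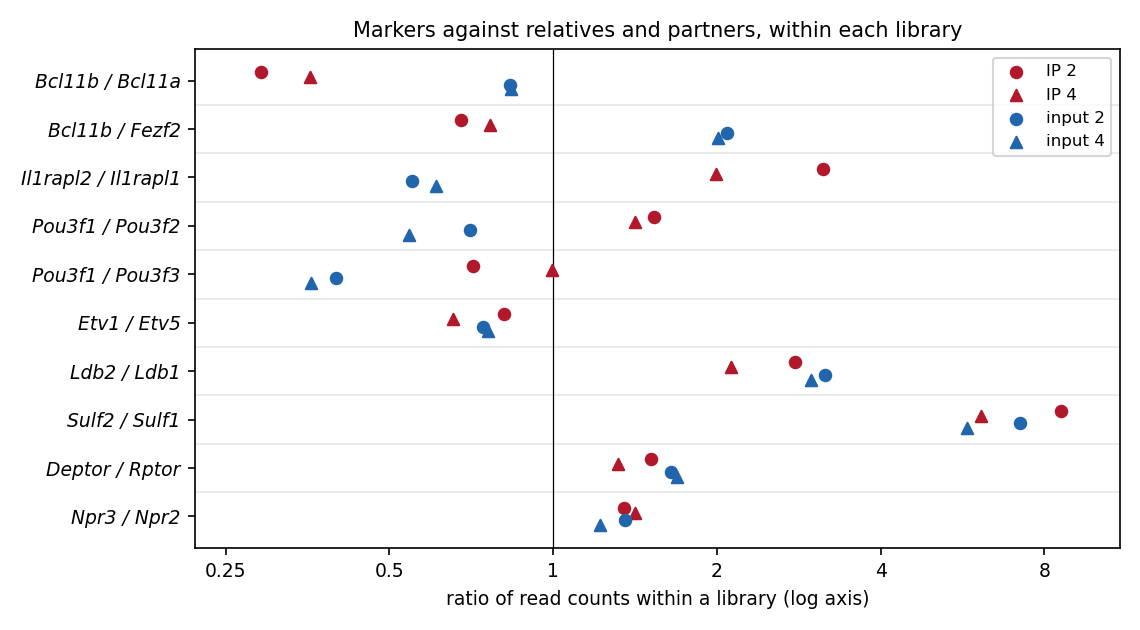
Ratio of the read counts of a marker to those of a relative or partner within each library, on a log axis. Red symbols are the IP libraries and blue symbols the input libraries, circles for replicate 2 and triangles for replicate 4. The ratio of Il1rapl2 to Il1rapl1 crosses 1 between the groups, from 0.551 and 0.609 in input to 3.13 and 1.99 in IP, and the ratio of Bcl11b to Fezf2 crosses it the other way. Counts were not divided by gene length, so a ratio of 1 does not mark equal levels. Per kilobase of exonic sequence, Il1rapl2 was above Il1rapl1 and Fezf2 above Bcl11b in both groups.

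The order of the markers by level differed between the groups. Levels were compared per kilobase of exonic sequence, as CPM per kb (mean ± SD, n = 2 in each group). Ldb2 was first in both, at 43.7 ± 3.92 in IP and 43.3 ± 0.351 in input, and Fezf2 was next in both, at 29.1 ± 0.704 and 19.7 ± 3.0. Bcl11b was the third in input, at 15.15 ± 1.91, and the seventh in IP, at 7.87 ± 0.501, where its range overlapped that of Etv1 (8.03 ± 0.0421). Sulf2 followed in input at 13.0 ± 1.04 and was the third in IP at 24.8 ± 0.506. Il1rapl2 was the lowest in input, at 1.60 ± 0.00595, just under Npr3 at 1.76 ± 0.056. In IP it was at 4.84 ± 1.22, in a range shared with Pou3f1 (5.61 ± 0.539), and Npr3 was the lowest at 1.69 ± 0.12. Deptor and Parm1 overlapped in input and not in IP. Exonic length, the union of all annotated exons of a gene, ranged from 3047 bases for Fezf2 to 13296 for Etv1. It can exceed every single transcript: the longest annotated ones of Etv1 and Npr3 have 6576 and 6892 bases. The order therefore depends on the length used. Among the 4 markers with an exonic length of at least 8 kb (Bcl11b, Deptor, Etv1 and Npr3), 2 rose and 1 fell. Of the 2688 genes of that exonic length tested, 23.5% were called higher and 29.5% lower.

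Other genes of layer 5 neurons, taken from lists that leave out the 10 markers, moved in both directions. On a list of 16 further extratelencephalic genes, 4 were higher in IP, 2 were lower and 10 did not pass, with a median log2 fold change of 0.0011. Crym, a thyroid hormone binding protein of corticospinal neurons, was 1.95-fold higher in IP (log2 0.96, SE 0.12), Nefh, the heavy neurofilament subunit, rose by 0.84 (SE 0.13), and Crim1, a membrane protein that binds bone morphogenetic proteins, by 0.62 (SE 0.11). Fam84b was 1.57-fold lower in IP (log2 -0.65, SE 0.17). The remaining genes that passed were Bcl6, a transcriptional repressor, at 0.47, and Pcp4, a calmodulin binding protein, at -0.59. The Bcl6 call was lost without IP 4, where the value was 0.24, and with library sizes alone, and Pcp4 was at -0.11 and did not pass with GC and length offsets. Tox, the most abundant of this list, did not pass (0.25, adjusted p = 0.0549), but passed as higher in 4 of the 12 alternatives.

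On a list of 12 further intratelencephalic genes, 2 were higher in IP, 1 was lower and 9 did not pass, with a median of 0.13. Arhgap25, a GTPase activating protein, rose by 0.55 (SE 0.16) and lost its call without input 4 and with library sizes alone. Endou (0.87, SE 0.32) and Col6a1 (-0.80, SE 0.28) also passed, each at a mean below 5 CPM, and each lost its call in at least 4 of the 12 alternatives. Plcxd2, the most abundant at 285 CPM, did not pass, with a 95% interval of -0.27 to 0.13, and neither did Ptprm at 0.27 (adjusted p = 0.0976). Plcxd2 was called lower with library sizes alone (-0.33), and Ptprm was called higher with a replicate block. The share of called genes in these lists, 6 of 28 higher and 3 of 28 lower, stood beside 23.4% and 22.4% of all genes tested.

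The regulators that set the identity of cortical projection neurons were divided as well. On a list of 22 such genes, 4 were higher in IP, 8 were lower and 10 did not pass (median -0.04). Of all genes tested, 23.4% were called higher and 22.4% lower. Bcl11a, the relative of Bcl11b, rose by 0.43 (SE 0.10, edgeR adjusted p = 0.00231), from 134 and 160 CPM in input to 210 and 186 CPM in IP. There were 0.291 and 0.358 Bcl11b counts for each Bcl11a count in IP and 0.832 and 0.837 in input, a ratio 2.59-fold lower in IP, and the rise of Bcl11a was lost with library sizes alone (0.17, adjusted p = 0.174). Neurod6, a factor of excitatory cortical neurons, rose by 1.42 (SE 0.10), and Tbr1, a factor of corticothalamic neurons that represses Fezf2, by 0.31 (SE 0.09), a call lost with library sizes alone.

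Among the regulators that fell, Rorb, a nuclear receptor of layer 4, did so by 0.96 (SE 0.10), and Sox5, which controls the sequence of corticofugal neuron types, by 0.79 (SE 0.11). Foxp2, a forkhead factor of layer 6, and Cux1, a homeobox factor of upper layers, fell by 0.70 (SE 0.14) and 0.63 (SE 0.10). On the same list, Tle4, also of layer 6, and Cux2, also of upper layers, did not pass. Their log2 fold changes were 0.06 (SE 0.10) and -0.02 (SE 0.10). Mef2c, the most abundant at 1343 CPM, did not pass at 0.20 (adjusted p = 0.0565), but passed as higher in 5 of the 12 alternatives, among them GC and length offsets (0.42, adjusted p = 7.20e-05).

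Of the 28 partners and relatives of the markers, 25 were tested, of which 7 rose, 7 fell and 11 did not pass (median -0.02). The shares over all genes tested were 23.4% higher and 22.4% lower. The largest fall was that of Lmo3, which encodes a LIM-only protein of the class that Ldb1 and Ldb2 bind. Lmo3 was at 100 and 116 CPM in IP and 200 and 235 CPM in input, and fell by 1.01 (SE 0.11, edgeR adjusted p = 3.80e-07). Lmo2, a second protein of that class, fell by 0.72 (SE 0.25), at a mean of 4.67 CPM, and its call was lost in 3 of the 12 alternatives. Lmo4 and Lmo1, also LIM-only proteins, did not pass, at -0.07 and -0.02 and means of 128 and 2.34 CPM.

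**Figure D4:**
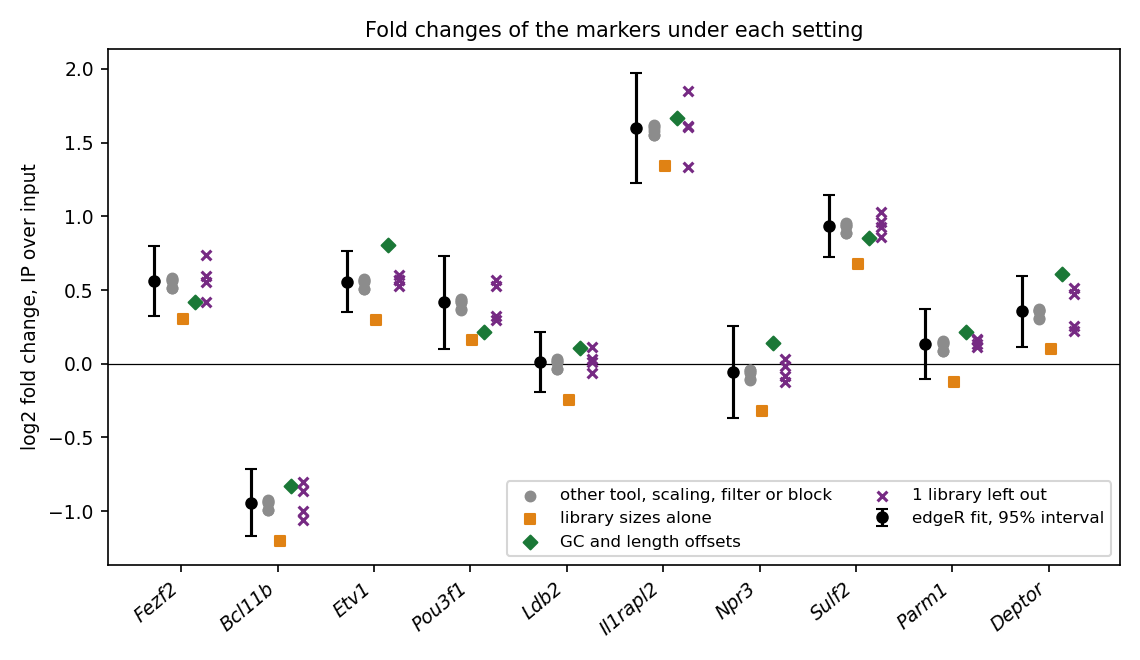
Log2 fold change of IP over input for the 10 markers, with the 95% interval of the edgeR fit in black and the value under each alternative in colour. Orange squares are library sizes alone, green diamonds GC and length offsets, purple crosses fits without 1 library and grey circles the remaining alternatives. The 6 genes called higher stay above 0 and Bcl11b below 0 in each case, whereas Ldb2, Npr3 and Parm1 cross 0.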

How the data were processed

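Per the submitters' processing notes, reads were aligned with STAR 2.0.0e to mm10 and counted with HTSeq. No source used here names the annotation or the strand setting. What the authors deposited for each library is a file of raw read counts, whole numbers with no normalisation. Lines for reads outside features, ambiguous reads and reads without a unique alignment entered neither library sizes nor tests. Reads outside features made up 7.31% and 7.54% of records in IP and 14.9% and 13.5% in input. Ambiguous reads made up 1.54% in each IP library and 5.07% and 5.09% in input. Reads without a unique alignment made up 37.0% and 38.0% in IP and 32.1% and 30.7% in input. Each of these shares thus differed between the groups without overlap.

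IP and input were compared with edgeR 4.0.16 (R 4.3.3), using TMM, filterByExpr (minimum count 10, minimum total 15), the two-sided quasi-likelihood test with no block, and Benjamini-Hochberg adjustment over 16600 genes. The common biological coefficient of variation was 12.5%. The SE of a log2 fold change was derived from the coefficient and test statistic of that fit, and the 95% intervals from that SE. The fit had 2 residual and 16.8 prior degrees of freedom. The spread used for a gene was thus drawn mostly from all genes together and less from its own 4 libraries. GENCODE vM21 (GRCm38, also called mm10) gave coordinates and lengths, and 23878 of 32531 names matched it. The listed symbol Diaph3 is named Diap3 in the files. Exons of Gpc1, Ldb1, Rptor, Il1rap, Cux1, Fam84b, Bcl6, Crim1, Tox, Sox5, Bcl11a, Npr1, Npr2, Ptprd, Pcp4 and Ptprm overlap another gene, which leaves their counts uncertain.

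The markers and lists were chosen with earlier results of these data known. Named are all 10 markers, their closest relatives, and from each list up to 4 called genes of at least 5 CPM with the largest change and the 2 most abundant genes. Genes that this takes from the cell type lists are given as counts only, and a gene that the rule takes is not reported here. Il1rap, Il1r1, Rptor, Mtor, Rictor, Nppc, Nppb, Ndst1, Lmo2, Endou, Col6a1, Bcl6, Pcp4, Tbr1 and Cux1 were named after their values were seen. So were Cux2, Tle4, Lmo1 and Lmo4. Alternatives were DESeq2 1.42.0, edgeR with the size factors of DESeq2 or with library sizes alone, no filter, a stricter filter (1 CPM in each library of a group), testing against a log2 difference of 1, a replicate block and leaving out each library. GC and length offsets (splines with 5 degrees of freedom), and the same genes without them, were added after seeing the data. Figures were drawn with matplotlib 3.10.9.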

Additional observations from a re-analysis of the deposited data

How the results depend on the processing

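With library sizes alone, 2151 genes were called higher and 5910 lower, 2 markers were called lower, and the median of the markers was 0.13. Against a log2 difference of 1, 172 genes were higher and 675 lower, and 1 marker was higher and 0 lower. The marker median was 0.32 with GC and length offsets and ranged from 0.32 to 0.40 when a library was left out. Leaving out a library gave 3323 to 3720 genes higher and 2670 to 3421 lower, with 5 markers higher and 1 lower each time. Log2 fold changes of the following genes changed sign. Ldb2 was at -0.246 with library sizes alone, -0.0373 with the stricter filter and -0.035 among genes with a length and GC value, and ranged from -0.0643 to 0.111 when a library was left out. Npr3 ranged from -0.124 to 0.0292 when a library was left out and was at 0.141 with GC and length offsets. With library sizes alone, Parm1 (-0.12), Mef2c (-0.0626), Mtor (-0.0203), Rictor (-0.0393) and Tox (-0.0042) turned negative. Plcxd2 ranged from -0.161 to 0.0412 and Ptprd from -0.0734 to 0.0289 when a library was left out, and they were at 0.13 and 0.27 with GC and length offsets. The cause of these changes was not tested.

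Of the intratelencephalic genes, 0 to 2 were higher and 0 to 3 lower over the alternatives. With library sizes alone, 4 extratelencephalic genes were lower, 4 partners and relatives were higher, and 1 regulator was higher. Without input 2, 4 partners and relatives were higher and 4 lower. Against a log2 difference of 1, the counts in these lists were 0, apart from 1 regulator that was higher.

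With a replicate block, 4314 genes were higher and 4037 lower, the median of the markers was 0.39, and no marker gained or lost its call. The labels do not say what a number marks, so the numbers were not taken as pairs. Deviations of IP 2 and input 2 from their group means correlated at 0.0481 across 16600 genes. With 2 libraries in each group, that value cannot show whether libraries of the same number came from the same sample. Each group holds 2 libraries, and their number limits the precision at these levels.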
